A study of Mus musculus with 10 samples.

Results

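The 31 genes described here are expressed as blood progenitors turn toward red cells or toward megakaryocytes and platelets. The 16 erythroid genes were Gata1, Klf1, Epor, Car1, Car2, Tfrc, Hba-a1, Hba-a2, Alas2, Slc4a1, Ermap, Rhd, Aqp1, Sphk1, Zfpm1 and Nfe2, and the 15 megakaryocyte and platelet genes were Pf4, Ppbp, Itga2b, Itgb3, Gp1ba, Gp1bb, Gp9, Gp6, Vwf, Plek, Selp, Treml1, Rab27b, F2r and Clec1b. They were taken by name from 38086 gene IDs present in both deposited count tables, and all 31 were found in both. RNA-seq was made from 10 libraries of sorted mouse bone marrow cells, in 4 groups. The groups were LSK KO (3 libraries), LSK CTRL (2), GMP KO (3) and GMP CTRL (2).

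LSK cells (Lin- Sca1+ cKit+) hold the blood stem cells and the multipotent progenitors, and GMP (Lin- Sca1- cKit+ CD34+ FcgR+) are granulocyte-macrophage progenitors. KO mice carried floxed alleles of Dnmt3a, which encodes a de novo DNA methyltransferase, and the Mx1-Cre transgene. The Mx1 promoter responds to poly(I:C) in blood-forming cells and in some other tissues. CTRL mice had the floxed alleles and no Cre, so loss of Dnmt3a and presence of Cre cannot be told apart. The treatment of 5 intraperitoneal poly(I:C) injections is recorded for KO and CTRL libraries alike. All were C57BL/6 animals of 12 months. The labels do not say that each library is a separate animal, so p-values measure the spread between libraries, which may be technical.

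Red cells and megakaryocytes arise from shared progenitors that express the zinc-finger transcription factor GATA1 and its partner FOG1, the product of Zfpm1. KLF1 then drives the erythroid branch, with its haem enzymes, globins and membrane proteins, while megakaryocytes fill granules with chemokines and adhesion proteins and display the integrin and glycoprotein receptors of platelets. Granulocyte-macrophage progenitors lie on another branch, and some stem cells in the LSK gate already carry megakaryocyte transcripts such as Vwf in mice.

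GATA1 binds GATA sites in promoters and enhancers of both branches, and KLF1 binds CACCC sites. RefSeq promoters (250 bases before to 50 after a gene's start, build GRCm38.p6) were found for 24 of the 31 genes. A gene with several promoter windows, such as Sphk1 or Tfrc, was counted if any of them held a match. A GATA match, AGATAA or TGATAA on either strand, was present in 12 of these 24 genes (50%), 8 of 12 erythroid and 4 of 12 megakaryocyte ones, and in 21.0% of 27025 genes with a promoter in the table. A CACCC match, CCNCACCC on either strand, was present in 7 of 24 (29.2%), against 18.4% of those genes. ETS matches (CGGAAG or AGGAAG) were in 15 of 24 genes (62.5%), against 49.8%, and NF-E2 matches (TGAGTCA or TGACTCA) in 2 of 24 (8.33%), against 5.95%. The GATA and CACCC matches did not overlap each other in the promoters printed here. A match describes letters in a window and shows no binding. The promoters of 3 erythroid genes and 1 platelet gene, all higher in LSK than in GMP (values below), are printed from 5′ to 3′ on the gene's strand. Each of those printed holds a GATA match, which is true of only 12 of the 24 genes. Capitals mark the GATA and CACCC matches. Their positions count from the start base as 0.
Klf1: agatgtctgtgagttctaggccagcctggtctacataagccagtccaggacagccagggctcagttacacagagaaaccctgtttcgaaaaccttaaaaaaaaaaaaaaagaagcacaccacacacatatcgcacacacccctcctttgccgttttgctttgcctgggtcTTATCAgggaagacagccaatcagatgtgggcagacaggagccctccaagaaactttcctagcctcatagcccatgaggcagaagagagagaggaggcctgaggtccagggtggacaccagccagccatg
Epor: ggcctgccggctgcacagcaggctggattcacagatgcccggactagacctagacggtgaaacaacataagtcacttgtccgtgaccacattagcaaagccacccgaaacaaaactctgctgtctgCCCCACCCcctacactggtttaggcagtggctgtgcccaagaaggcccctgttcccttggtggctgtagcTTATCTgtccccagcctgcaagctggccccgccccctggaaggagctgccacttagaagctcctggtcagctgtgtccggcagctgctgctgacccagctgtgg
Ermap: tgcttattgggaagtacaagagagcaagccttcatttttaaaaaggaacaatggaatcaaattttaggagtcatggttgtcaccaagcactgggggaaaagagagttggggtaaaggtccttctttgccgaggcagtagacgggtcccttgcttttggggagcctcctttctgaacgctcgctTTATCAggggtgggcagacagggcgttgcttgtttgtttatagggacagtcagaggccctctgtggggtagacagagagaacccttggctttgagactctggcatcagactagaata
Gp1ba: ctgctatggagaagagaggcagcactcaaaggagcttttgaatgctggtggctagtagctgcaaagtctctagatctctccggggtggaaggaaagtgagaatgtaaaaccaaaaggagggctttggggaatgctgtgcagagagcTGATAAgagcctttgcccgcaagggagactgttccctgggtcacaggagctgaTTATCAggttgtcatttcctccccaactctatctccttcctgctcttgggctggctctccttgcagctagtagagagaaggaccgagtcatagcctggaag
The Klf1 window (chr8:84901732-84902031, plus strand) holds a GATA match at position -80. The Epor window (chr9:21963527-21963826, minus strand) holds a CACCC match at -124 and a GATA match at -54. The Ermap window (chr4:119189946-119190245, minus strand) holds a GATA match at -67, and the Gp1ba window (chr11:70638872-70639171, plus strand) holds GATA matches at -104 and -51.

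Reads assigned to genes numbered 29533371 to 30437981 per library in LSK and 93850256 to 122658636 in GMP, and the 2 populations were counted on different annotations, so population, table and depth cannot be told apart. Dnmt3a, the targeted gene, measured 55.5, 51.2 and 57.1 CPM in LSK KO, 151 and 145 CPM in LSK CTRL, 51.7, 65.9 and 20.5 CPM in GMP KO and 143 and 115 CPM in GMP CTRL libraries. It was lower in every KO library, with a log2 fold change of -1.43 ± 0.078 (SE) in LSK (edgeR quasi-likelihood test, adjusted p = 0.000106) and -1.499 ± 0.42 in GMP (adjusted p = 0.300); a gene count does not separate the deleted part. All 17 stem cell markers tested were higher in LSK than in GMP, and 11 of 13 granulocyte and monocyte progenitor markers were lower in LSK CTRL, Kit and Cd34 being the others. In GMP the libraries stood apart by the share of listed reads outside annotated genes, which among KO libraries was 16.1% in KO-179, 15.5% in KO-178 and 10.3% in KO-352, against 14.2% in CTRL-350 and 8.50% in CTRL-346. In LSK they stood apart by Xist, which was 1.08 CPM in KO-1327, 742 CPM in KO-1333 and 1133 CPM in KO-1334, against 1.07 CPM in CTRL-1326 and 1172 CPM in CTRL-1330. The GMP libraries had Xist at 0.195 to 2.13 CPM, so LSK and GMP differed in Xist as well. The part of this in the values of LSK over GMP was not tested. One label of GMP KO-352 points to the LSK tables although its title says GMP, and the title was used.

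Most erythroid genes tested were more abundant in LSK than in GMP, the transferrin receptor Tfrc being the one called lower. Levels are CPM, depth-scaled read counts with library sizes adjusted by the trimmed mean of M-values (TMM), given here and below by rising library number within each group. In LSK these were KO-1327, KO-1333 and KO-1334, then CTRL-1326 and CTRL-1330, and in GMP KO-178, KO-179 and KO-352, then CTRL-346 and CTRL-350. The adjusted p is from edgeR's quasi-likelihood test with Benjamini-Hochberg adjustment over all genes, called under 0.05. Of the 15 erythroid genes tested, 14 were called higher and 1 lower in LSK CTRL than in GMP CTRL, with a median log2 fold change of 4.27; over all 18836 genes tested, 28.2% were called higher and 27.3% lower, and the median was 0.12. Between LSK KO and GMP KO, 13 of 15 were called higher and 1 lower (median 4.15), against 30.7% and 30.1% of all genes (median 0.081). Hba-a1, called higher in both genotypes, passed the filter on low counts only through its LSK reads, so its calls are no separate support. The CTRL median of 4.27 is the fitted value of Hba-a1 itself. In bulk RNA, fewer cells of a type and less RNA per cell cannot be told apart. A gate can also hold cells of another kind.

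Among the regulators, Klf1, the erythroid Krüppel-like factor whose promoter is printed above, measured 27.0, 33.6 and 29.6 CPM in LSK KO, 24.3 and 32.7 CPM in LSK CTRL, 1.76, 1.42 and 0.735 CPM in GMP KO and 0.938 and 2.72 CPM in GMP CTRL libraries. The lowest LSK value was several times the highest GMP value, and the log2 fold change was 4.52 ± 0.41 in KO and 3.96 ± 0.48 in CTRL. Zfpm1, which encodes FOG1, measured 143, 139.9 and 142 CPM in LSK KO, 136 and 141 CPM in LSK CTRL, 4.16, 4.82 and 2.48 CPM in GMP KO and 5.57 and 5.35 CPM in GMP CTRL libraries. Its LSK libraries were all close together, and the fold of LSK over GMP was 37.0 in KO and 25.4 in CTRL. Gata1 (chrX:7959260-7978071) measured 31.6, 34.0 and 30.2 CPM in LSK KO, 27.4 and 36.5 CPM in LSK CTRL, 7.42, 5.95 and 3.40 CPM in GMP KO and 6.07 and 16.3 CPM in GMP CTRL libraries. The difference was smaller than for its partner, 2.51 ± 0.36 on the log2 scale in KO and 1.52 ± 0.42 in CTRL, and GMP CTRL-350 had the highest Gata1 of the GMP libraries. Nfe2, the large subunit of the NF-E2 factor used by both branches, measured 248, 219.7 and 221 CPM in LSK KO, 268 and 223 CPM in LSK CTRL, 98.6, 92.7 and 100.1 CPM in GMP KO and 110.5 and 118 CPM in GMP CTRL libraries. It was 2.36-fold higher in LSK KO than in GMP KO and 2.16-fold higher in LSK CTRL than in GMP CTRL.

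The receptors went both ways. Epor, the erythropoietin receptor, measured 10.8, 11.1 and 13.8 CPM in LSK KO, 9.04 and 15.4 CPM in LSK CTRL, 1.04, 0.550 and 0.420 CPM in GMP KO and 0.219 and 0.859 CPM in GMP CTRL libraries, a log2 fold change of 4.15 ± 0.49 in KO and 4.50 ± 0.62 in CTRL. Tfrc (chr16:32608920-32632794), which takes up iron-loaded transferrin into dividing cells as well as erythroblasts, measured 183, 199 and 177 CPM in LSK KO, 148 and 177.6 CPM in LSK CTRL, 397, 492 and 591 CPM in GMP KO and 807 and 580.2 CPM in GMP CTRL libraries. Every LSK library lay below every GMP library, with a log2 fold change of -1.403 ± 0.16 in KO (adjusted p = 3.17e-05) and -2.09 ± 0.20 in CTRL (adjusted p = 1.62e-05). It was the only erythroid gene tested that was called lower in LSK, and 33% of all genes in KO and 36.7% in CTRL had every LSK library below every GMP library.

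The carbonic anhydrases were the most abundant erythroid transcripts of LSK per length of exon. Car2 measured 487, 502 and 445 CPM in LSK KO, 588 and 450.3 CPM in LSK CTRL, 37.8, 41.0 and 20.5 CPM in GMP KO and 24.9 and 32.9 CPM in GMP CTRL libraries, with log2 fold changes of 3.85 ± 0.25 in KO and 4.17 ± 0.31 in CTRL. Car1 (chr3:14766216-14808368) measured 192, 177 and 155 CPM in LSK KO, 184 and 208 CPM in LSK CTRL, 53.0, 43.6 and 8.72 CPM in GMP KO and 1.61 and 12.1 CPM in GMP CTRL libraries. Its LSK libraries were alike and its GMP libraries were spread widely, and LSK stood 4.97-fold above GMP in KO and 28.7-fold in CTRL. Alas2, which begins haem synthesis in erythroid cells, was near the lower end at 1.74, 2.06 and 2.20 CPM in LSK KO, 1.74 and 1.85 CPM in LSK CTRL, 1.12, 1.34 and 0.607 CPM in GMP KO and 0.512 and 0.968 CPM in GMP CTRL libraries. Its log2 fold change of LSK over GMP was 0.96 ± 0.36 in KO (adjusted p = 0.0401) and 1.27 ± 0.45 in CTRL (adjusted p = 0.0342). These calls were lost without GMP CTRL-346, LSK CTRL-1326 or LSK CTRL-1330 in CTRL and in 7 of 12 alternatives in KO, where the adjusted p reached 0.107. Sphk1, which makes the lipid signal sphingosine 1-phosphate that red cells carry, measured 13.2, 19.6 and 18.5 CPM in LSK KO, 15.8 and 25.0 CPM in LSK CTRL, 1.28, 0.695 and 0.280 CPM in GMP KO and 0.183 and 0.871 CPM in GMP CTRL libraries, with log2 fold changes of 4.50 ± 0.59 in KO and 5.27 ± 0.75 in CTRL.

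Genes of the red cell membrane gave some of the greatest differences. Ermap (chr4:119175457-119190011), an erythroblast membrane protein of the butyrophilin-like family, measured 42.7, 58.7 and 45.6 CPM in LSK KO, 39.5 and 59.7 CPM in LSK CTRL, 4.16, 3.01 and 0.735 CPM in GMP KO and 0.232 and 0.956 CPM in GMP CTRL libraries. LSK exceeded GMP 18.5-fold in KO and 83.3-fold in CTRL. Aqp1, the water channel of red cells, measured 114, 116 and 113 CPM in LSK KO, 103 and 129 CPM in LSK CTRL, 8.29, 6.98 and 2.44 CPM in GMP KO and 1.02 and 6.22 CPM in GMP CTRL libraries, and Rhd, the mouse Rh antigen gene, 9.68, 19.2 and 15.7 CPM in LSK KO, 14.6 and 16.7 CPM in LSK CTRL, 0.897, 0.758 and 0.782 CPM in GMP KO and 0.426 and 0.653 CPM in GMP CTRL libraries. Their log2 fold changes were 4.27 and 4.19 in KO and 5.00 and 4.85 in CTRL. Slc4a1, the band 3 anion exchanger of late erythroid cells, was low everywhere, at 0.771, 1.60 and 1.21 CPM in LSK KO, 1.55 and 1.53 CPM in LSK CTRL, 0.697, 1.03 and 0.338 CPM in GMP KO and 0.207 and 0.194 CPM in GMP CTRL libraries. It was called higher in LSK CTRL than in GMP CTRL (log2 fold change 2.93 ± 0.58, adjusted p = 0.00159), but not in LSK KO against GMP KO (0.79 ± 0.43, adjusted p = 0.137), where GMP KO-179 overlapped the LSK range.

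Alpha globin, the product of mature erythroblasts, was close to the limit of detection. Hba-a1 had 13, 44 and 42 reads in LSK KO, 19 and 31 in LSK CTRL, 2, 6 and 2 in GMP KO, and 0 and 6 in GMP CTRL. Its log2 fold change of LSK over GMP was 4.74 ± 0.84 in KO and 4.27 ± 1.03 in CTRL, and the CTRL value was 3.34 without GMP CTRL-346 and 8.47 without GMP CTRL-350, a fitted value against 0 reads that is no bound. Hba-a2 had at most 12 reads in any library and was not tested between the populations. It averaged 0.0195 CPM in LSK KO, 0.0289 in LSK CTRL, 0.0503 in GMP KO and 0.0605 in GMP CTRL, the lower means being in LSK. The 554-base Hba-a2 transcript aligned within Hba-a1 with 17 differing bases (96.93% identity). The GMP counting set aside reads with several alignments, and no such total is given for LSK, so the values of both genes are uncertain. A count of 0 allows up to 3 reads, 0.0366 CPM in GMP CTRL-346, and this covers counting error only.

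**Figure D1:**
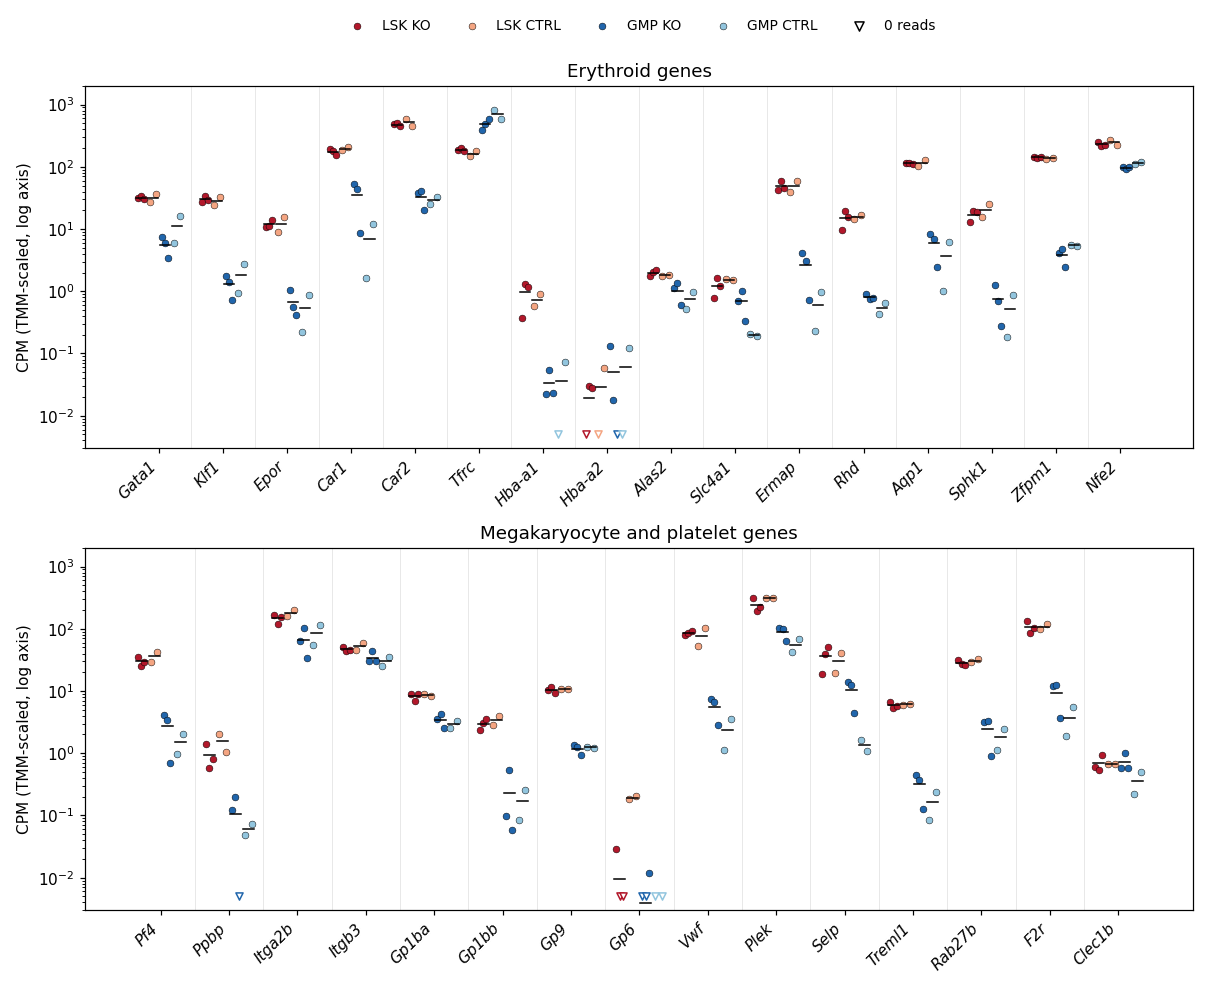
Level of each gene in every library, as TMM-scaled CPM on a log axis, with erythroid genes above and megakaryocyte and platelet genes below. Points are libraries, bars are group means and open triangles are libraries with 0 reads. LSK points stand above GMP points for most genes, Tfrc is the other way round, and the populations overlap for Hba-a2, and in KO also for Slc4a1, Gp6 and Clec1b.

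Megakaryocyte and platelet genes were likewise higher in LSK. Of 15 tested, 13 were called higher in LSK CTRL than in GMP CTRL and 0 lower, the others being Itga2b and Clec1b, with a median log2 fold change of 4.30 (4.10 with Gp6 at its lower bound) against 0.12 over all genes. Gp6, among the 13, passed the filter on low counts only through its LSK CTRL reads, so its call is no separate support. Ppbp, called higher in both genotypes, passed that filter only through its LSK reads, so its calls are no separate support either. Between LSK KO and GMP KO 13 of 15 were called higher and 0 lower, the others being Clec1b and Gp6. The median was 3.07, which is the value of Ppbp itself. The shares of all genes called are those given above. All 15 in CTRL and 13 in KO had every LSK library above every GMP library, against 41.8% and 35.4% of all genes.

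Of the secreted and granule proteins, Vwf, which encodes von Willebrand factor, the plasma protein that tethers platelets to vessel walls and that endothelial cells make too, measured 80.2, 84.7 and 90.4 CPM in LSK KO, 53.4 and 102 CPM in LSK CTRL, 7.39, 6.62 and 2.85 CPM in GMP KO and 1.11 and 3.53 CPM in GMP CTRL libraries. LSK stood 15.1-fold above GMP in KO and 33.5-fold in CTRL. Pf4, platelet factor 4, measured 35.2, 25.6 and 29.6 CPM in LSK KO, 29.4 and 42.9 CPM in LSK CTRL, 4.10, 3.43 and 0.700 CPM in GMP KO and 0.975 and 2.04 CPM in GMP CTRL libraries, with log2 fold changes of 3.45 ± 0.52 in KO and 4.58 ± 0.68 in CTRL. Ppbp, its neighbour on chromosome 5 and another platelet chemokine, was much lower, at 1.399, 0.575 and 0.818 CPM in LSK KO, 2.07 and 1.04 CPM in LSK CTRL, 0.122, 0.198 and 0 CPM in GMP KO and 0.0487 and 0.0726 CPM in GMP CTRL libraries. Selp (chr1:164115264-164150026), P-selectin of platelet granules and endothelium, measured 18.6, 39.8 and 51.4 CPM in LSK KO, 19.1 and 41.5 CPM in LSK CTRL, 13.9, 12.3 and 4.48 CPM in GMP KO and 1.61 and 1.10 CPM in GMP CTRL libraries. Its log2 fold change of LSK over GMP was 1.84 ± 0.47 in KO and 4.48 ± 0.66 in CTRL. Within LSK the low values were in KO-1327 and CTRL-1326, the libraries with Xist near 1 CPM, and the other LSK libraries had 39.8 to 51.4 CPM.

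The fibrinogen receptor is a pair of Itga2b (CD41) and Itgb3 (CD61), and both were well expressed in GMP as well. Itga2b measured 167, 119.8 and 153 CPM in LSK KO, 159 and 197 CPM in LSK CTRL, 63.1, 102 and 34.4 CPM in GMP KO and 55.2 and 114 CPM in GMP CTRL libraries. The adjusted p of LSK over GMP was 0.0177 in KO (log2 fold change 1.14 ± 0.36) and 0.0576 in CTRL (1.07 ± 0.44), with GMP CTRL-350 well above CTRL-346. Over the alternatives its adjusted p in CTRL ran between 0.0213 and 0.284 and it was called in 5 of 10, and in KO the call was lost without LSK KO-1327. Itgb3 measured 51.1, 44.5 and 45.02 CPM in LSK KO, 46.3 and 59.6 CPM in LSK CTRL, 30.1, 43.1 and 29.9 CPM in GMP KO and 25.3 and 35.8 CPM in GMP CTRL libraries. Its log2 fold change was small, 0.45 ± 0.18 in KO (adjusted p = 0.0474) and 0.79 ± 0.22 in CTRL (adjusted p = 0.0102). The call was lost without GMP CTRL-346 or LSK CTRL-1330 in CTRL, and in KO without any 1 of GMP KO-178, GMP KO-352 and the 3 LSK KO libraries.

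Gp1ba, Gp1bb and Gp9 encode parts of the receptor for von Willebrand factor, and they differed in how far LSK stood above GMP. Gp1ba, whose promoter is printed above, measured 8.85, 6.99 and 9.08 CPM in LSK KO, 9.04 and 8.23 CPM in LSK CTRL, 3.51, 4.30 and 2.56 CPM in GMP KO and 2.57 and 3.30 CPM in GMP CTRL libraries, a 2.40-fold difference in KO and 2.94-fold in CTRL. Gp9 measured 10.5, 11.4 and 9.25 CPM in LSK KO, 10.9 and 10.6 CPM in LSK CTRL, 1.34, 1.25 and 0.945 CPM in GMP KO and 1.28 and 1.222 CPM in GMP CTRL libraries, 8.80-fold in KO and 8.59-fold in CTRL. Gp1bb measured 2.37, 3.03 and 3.58 CPM in LSK KO, 2.86 and 3.90 CPM in LSK CTRL, 0.0996, 0.532 and 0.0583 CPM in GMP KO and 0.0853 and 0.254 CPM in GMP CTRL libraries, 12.6-fold in KO and 19.7-fold in CTRL, and it overlaps Sept5 on the same strand, so its reads may not all be its own.

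Gp6, the collagen receptor, had 1, 0 and 0 reads in LSK KO, 6 and 7 in LSK CTRL, 0, 0 and 1 in GMP KO and 0 in both GMP CTRL libraries. Set against a floor of 3 reads over the GMP CTRL group it was at least 10.6-fold higher in LSK CTRL, and the ratio of LSK KO over GMP KO was 2.77 (95% exact interval 0.0353 to 218). Clec1b, the podoplanin receptor CLEC-2, measured 0.600, 0.545 and 0.930 CPM in LSK KO, 0.670 and 0.665 CPM in LSK CTRL, 0.587, 1.01 and 0.583 CPM in GMP KO and 0.219 and 0.496 CPM in GMP CTRL libraries, and it was not called in either genotype (adjusted p = 0.891 in KO and 0.175 in CTRL). It overlaps Clec9a on the same strand. The thrombin receptor gene F2r measured 131, 86.3 and 102 CPM in LSK KO, 98.7 and 119 CPM in LSK CTRL, 11.8, 12.7 and 3.66 CPM in GMP KO and 1.93 and 5.46 CPM in GMP CTRL libraries, with LSK 11.3-fold above GMP in KO and 29.4-fold in CTRL. Treml1, a receptor stored in platelet granules, measured 6.65, 5.30 and 5.78 CPM in LSK KO, 6.03 and 6.18 CPM in LSK CTRL, 0.454, 0.370 and 0.128 CPM in GMP KO and 0.0853 and 0.242 CPM in GMP CTRL libraries, and the folds were 18.4 in KO and 36.9 in CTRL.

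Of the intracellular genes, Plek, the protein kinase C substrate pleckstrin, measured 316, 189.8 and 224 CPM in LSK KO, 314 and 318 CPM in LSK CTRL, 103, 100.3 and 63.7 CPM in GMP KO and 42.9 and 68.4 CPM in GMP CTRL libraries. It was also plentiful in GMP, and LSK exceeded GMP 2.74-fold in KO and 5.68-fold in CTRL. Rab27b, a small GTPase of granule release, measured 31.2, 27.2 and 26.6 CPM in LSK KO, 29.3 and 32.3 CPM in LSK CTRL, 3.15, 3.33 and 0.910 CPM in GMP KO and 1.11 and 2.48 CPM in GMP CTRL libraries, with folds of 11.4 in KO and 17.1 in CTRL.

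**Figure D2:**
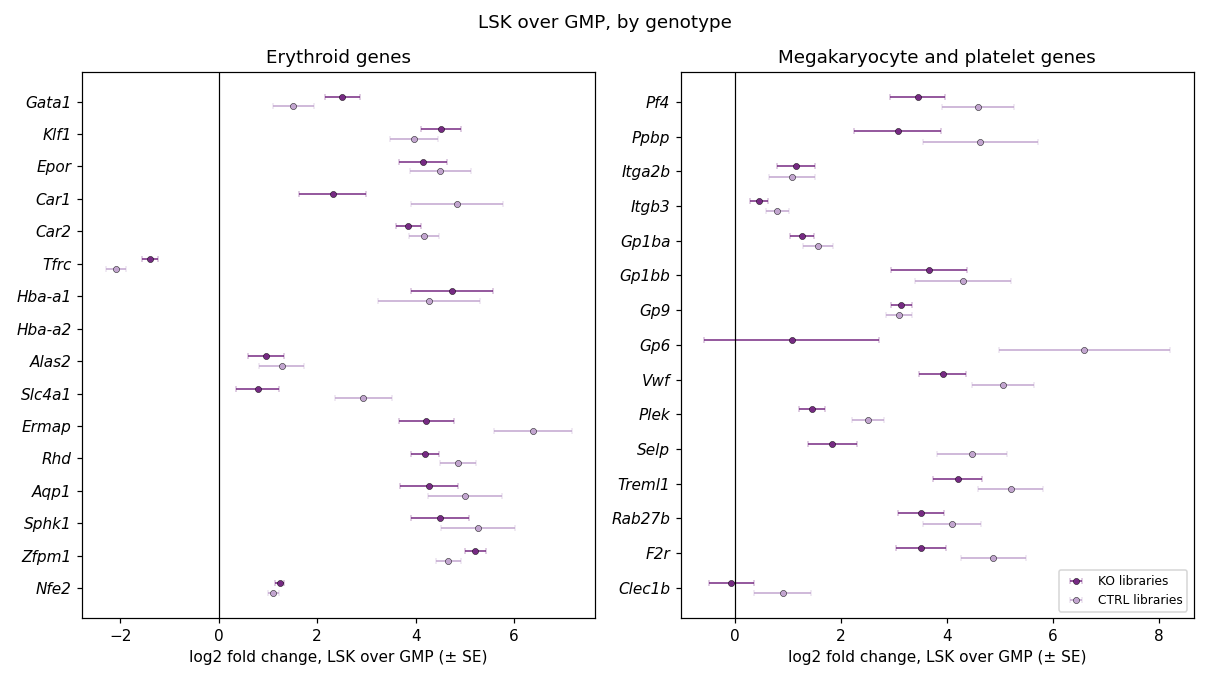
Fitted log2 fold change of LSK over GMP for each gene, in KO libraries (dark) and CTRL libraries (pale), with bars of ± 1 SE. Among the erythroid genes Tfrc alone lies left of 0, at -1.40 in KO and -2.09 in CTRL, and in KO libraries Clec1b lies at -0.073. The Gp6 values rest on at most 7 reads a library and are no bound.

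Levels of different genes can be compared only per length of exon, as CPM per kb. In LSK CTRL the order was led by Car2 at 214 CPM per kb, Car1 at 157, Nfe2 at 82.3, Plek at 70.5 and Pf4 at 50.2, and it ended in Slc4a1 at 0.315, Clec1b at 0.131, Hba-a2 at 0.0433 and Gp6 at 0.0326. In LSK KO the leading genes were Car2 at 197, Car1 at 139.9, Nfe2 at 76.8, Plek at 54.2 and Aqp1 at 43.6. In GMP KO they were Tfrc at 79.7, Nfe2 at 32.5, Car1 at 28.1, Plek at 19.8 and Car2 at 13.7. In GMP CTRL they were Tfrc at 112, Nfe2 at 38.1, Itga2b at 15.5, Plek at 12.4 and Car2 at 11.9, with Car1 at 5.48. Alas2, Slc4a1 and the globins, genes of later red cell stages, were thus among the lowest in LSK, and the carbonic anhydrases were the highest.

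In GMP, no erythroid or megakaryocyte gene passed the test of KO against CTRL. Of 15 erythroid genes tested 0 were called, as were 0 of 14 megakaryocyte genes, while 6 of 17290 genes were called in all (0.0347%). Gp6 and Hba-a1 had too few reads to be tested. At an unadjusted p under 0.05 there were 5 erythroid genes (3 positive, 2 negative) and 2 megakaryocyte genes, and 2387 of all genes. DESeq2 called 1 of 27, Selp, and 718 of 16630 genes in all (4.32%), and limma-voom called 0 of 29 and 0 of all genes (0%). The median log2 fold change was 0.31 over the erythroid genes and 0.74 over the megakaryocyte genes, of which 12 of 14 were positive, beside 0.011 over all genes, 51.2% of them positive. These medians turned with the libraries. They were -0.19 and -0.017 with a term in the fit for the reads outside genes, -0.33 and -0.20 without KO-178 and KO-179, -0.20 and 0.39 without CTRL-346, 0.92 and 1.25 without CTRL-350, and -0.015 and 0.55 without KO-178. Without KO-352 they were 0.55 and 1.03.

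The GMP libraries kept a like order over many of these genes. KO-178 or KO-179, with 15.5% and 16.1% of reads outside genes, held the highest value for 10 of 16 erythroid genes and 13 of 15 megakaryocyte genes, and CTRL-350 (14.2%) for 4 and 1. CTRL-346 (8.50%) held the lowest value for 8 erythroid and 6 megakaryocyte genes, and KO-352 (10.3%) for 4 and 7. The same counts were not made over all genes, so this order may not be particular to these genes. Values within each level of the share of reads outside genes follow the single genes.

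Car1 had the erythroid fold change furthest from 0, with 53.0, 43.6 and 8.72 CPM in KO libraries and 1.61 and 12.1 CPM in CTRL libraries, a log2 fold change of 2.36 ± 0.99 (adjusted p = 0.362). The groups overlapped, since KO-352 lay below CTRL-350. Ermap was similar, with 4.16, 3.01 and 0.735 CPM in KO and 0.232 and 0.956 CPM in CTRL (2.15 ± 0.86, adjusted p = 0.350), and again KO-352 fell between the CTRL libraries. Slc4a1 had every KO library above both CTRL libraries, with 0.697, 1.03 and 0.338 CPM in KO and 0.207 and 0.194 CPM in CTRL (1.77 ± 0.59, adjusted p = 0.322). Its counts were 63, 114 and 29 reads in KO and 17 and 16 in CTRL. Rhd was the other erythroid gene whose KO libraries were all higher, at 0.897, 0.758 and 0.782 CPM in KO and 0.426 and 0.653 CPM in CTRL. This holds for 16.5% of all genes.

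Some erythroid regulators had negative values in GMP KO. Gata1 had 7.42, 5.95 and 3.40 CPM in KO and 6.07 and 16.3 CPM in CTRL, a log2 fold change of -1.003 ± 0.46 (adjusted p = 0.386), with KO-178 above CTRL-346. Nfe2, at 98.6, 92.7 and 100.1 CPM in KO and 110.5 and 118 CPM in CTRL (-0.24 ± 0.098, adjusted p = 0.352), and Zfpm1, at 4.16, 4.82 and 2.48 CPM in KO and 5.57 and 5.35 CPM in CTRL (-0.52 ± 0.31, adjusted p = 0.475), had all KO libraries below all CTRL libraries, as in 15.1% of all genes. Tfrc had 397, 492 and 591 CPM in KO and 807 and 580.2 CPM in CTRL (-0.51 ± 0.21, adjusted p = 0.359), and KO-352 slightly exceeded CTRL-350. Klf1, at -0.49 ± 0.55, and Hba-a2, at -0.28 ± 1.63, completed the 6 negative erythroid values, and both had overlapping groups. The remaining positive values were Aqp1 at 0.71 ± 0.78, Sphk1 at 0.51 ± 0.82, Alas2 at 0.46 ± 0.48, Epor at 0.31 ± 0.67 and Car2 at 0.19 ± 0.30.

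GATA1 also acts in mast cells, eosinophils and basophils. Genes of those cells were all negative in GMP KO, 16 of 16 tested with a median of -1.57, and Hdc, which makes histamine, was called lower (-1.05 ± 0.097, adjusted p = 0.0414). Their summed level was 1104, 1418 and 1137 CPM in KO and 1815 and 4803 CPM in CTRL, so that CTRL-350 was highest for these genes and for Gata1. Their part in the Gata1 values was not tested. Of the 20 listed genes, 1 was at 0 in all GMP KO libraries and 1 in both GMP CTRL libraries.

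Selp was the megakaryocyte gene furthest from 0 in GMP. It had 13.9, 12.3 and 4.48 CPM in KO and 1.61 and 1.10 CPM in CTRL, every KO library lying above both CTRL libraries, and the log2 fold change was 2.90 ± 0.54 (7.49-fold, unadjusted p = 0.00106, adjusted p = 0.240). Its adjusted p was 2.04e-07 in DESeq2, 0.0342 without a filter on low counts (0.196% of all genes called) and 0.0254 without KO-352 (1.01%), and over all alternatives it ran up to 0.9999. Clec1b was the other gene whose KO libraries were all higher, with 0.587, 1.01 and 0.583 CPM in KO and 0.219 and 0.496 CPM in CTRL (1.02 ± 0.53). Of all genes, 16.5% had every KO library above both CTRL libraries. Antisense genes overlap Selp, and also Alas2, Sphk1, Plek and Rab27b. No source used here gives the strand setting of the counting, so their reads may be mixed. Genes on the same strand overlap Car1, Zfpm1, Itga2b and Gp6, as well as Gp1bb and Clec1b.

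Vwf and F2r had the next largest values. Vwf had 7.39, 6.62 and 2.85 CPM in KO and 1.11 and 3.53 CPM in CTRL (1.27 ± 0.59, adjusted p = 0.388), and F2r had 11.8, 12.7 and 3.66 CPM in KO and 1.93 and 5.46 CPM in CTRL (1.34 ± 0.63, adjusted p = 0.393). In both genes KO-352 lay between the CTRL libraries. Plek, at 103, 100.3 and 63.7 CPM in KO and 42.9 and 68.4 CPM in CTRL (0.67 ± 0.26, adjusted p = 0.348), overlapped in the same way. Treml1 (0.95), Pf4 (0.86), Ppbp (0.82), Gp1bb (0.45), Rab27b (0.45), Gp1ba (0.23) and Itgb3 (0.16) were positive, and Itga2b (-0.35) and Gp9 (-0.0996) negative, all with an adjusted p of at least 0.5795. Vwf and Selp are also made by endothelium, whose 17 markers summed to 222.5, 212 and 207 CPM in GMP KO and 213 and 231 CPM in GMP CTRL, with 1 of the 17 at 0 in each group. Of the 13 tested, 9 were positive in GMP KO, with a median log2 fold change of 0.62 and 0 called, and all 5 stromal markers tested were positive, with a median of 0.545 and 0 called. The part of these cells was not tested.

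Libraries of nearer share were then compared, KO-178 and KO-179 (15.5% and 16.1%) with CTRL-350 (14.2%) at the high level. At the low level KO-352 (10.3%) was compared with CTRL-346 (8.50%). No test was run since each level has 1 CTRL library. The share was still larger in KO at both levels, so it was not held equal. Of the 31 genes, 12 (38.7%) were higher in KO at both levels and 6 (19.4%) were lower at both, against 29.1% and 27.7% of 17130 genes. The 12 were Car1, Alas2, Slc4a1, Ermap, Rhd, Aqp1, Vwf, Plek, Selp, Treml1, F2r and Clec1b, and the 6 were Gata1, Klf1, Tfrc, Zfpm1, Nfe2 and Itga2b. The ratio of KO to CTRL was 4.001 at the high level and 5.42 at the low level for Car1. In the same order of levels it was 11.9 and 2.79 for Selp, 3.75 and 3.17 for Ermap, and 0.411 and 0.559 for Gata1. For Pf4 it was 1.84 and 0.718, on opposite sides of 1. With the share as a term in the fit, Car1 was called higher and Gata1 lower, while 205 genes were called in all (1.19%). Without CTRL-346 and KO-352, a comparison added after the data were seen that leaves 1 CTRL library, Car1, Ermap, Plek, Selp and F2r were called higher and Gata1 lower, among 1050 genes in all (5.76%).

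**Figure D3:**
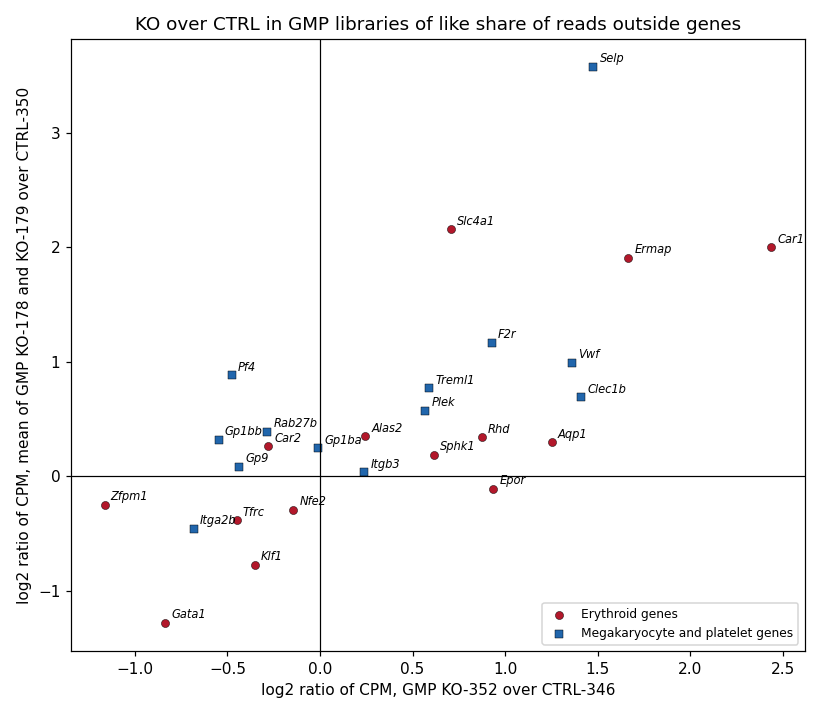
Log2 ratio of KO to CTRL CPM in GMP libraries with a low share of reads outside genes (x axis, KO-352 over CTRL-346) and with a high share (y axis, mean of KO-178 and KO-179 over CTRL-350), for erythroid (circles) and megakaryocyte and platelet genes (squares). Car1, Ermap and Selp lie far into the upper right, and Gata1, Zfpm1, Klf1, Tfrc, Nfe2 and Itga2b into the lower left; Hba-a1, Hba-a2, Ppbp and Gp6 have a value of 0 or too few reads and are not drawn.

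In LSK, where the levels of most genes were higher than in GMP, the KO and CTRL libraries overlapped for every gene tested. Of 15 erythroid genes tested 0 were called and 0 had an unadjusted p under 0.05, and the same was true of the 14 megakaryocyte genes. Over all genes 4 of 17238 were called (0.0232%) and 487 had an unadjusted p under 0.05. DESeq2 called 0 of 31, with 0.0802% of all genes called, and limma-voom 0 of 29, with 0.0232%. Of the megakaryocyte values 3 of 14 were positive, against 50.85% of all genes. The median log2 fold change was -0.017 over the erythroid genes and -0.079 over the megakaryocyte genes, beside 0.0027 over all genes. The erythroid and megakaryocyte medians were 0.18 and 0.025 without CTRL-1330 and -0.19 and -0.20 without CTRL-1326. Every adjusted p was 0.9998.

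Gata1 averaged 31.9 ± 1.92 CPM in LSK KO and 32.0 ± 6.45 CPM in LSK CTRL (SD, 3 and 2 libraries), a log2 fold change of 0.0014 ± 0.14. Zfpm1 averaged 142 ± 1.72 CPM in KO and 138 ± 3.72 CPM in CTRL, and Aqp1 114 ± 1.82 CPM in KO and 116 ± 18.5 CPM in CTRL. Car1, the erythroid gene furthest from 0 in GMP, averaged 174 ± 18.4 CPM in KO and 196 ± 17.0 CPM in CTRL (-0.16 ± 0.11). The erythroid gene with the smallest p was Tfrc, with 183, 199 and 177 CPM in KO and 148 and 177.6 CPM in CTRL (0.20 ± 0.09952, unadjusted p = 0.0720). The erythroid values ran between -0.36 for Slc4a1 and 0.38 for Hba-a1, both of them genes with few reads.

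Among the megakaryocyte genes Plek had the smallest p, with 316, 189.8 and 224 CPM in KO and 314 and 318 CPM in CTRL (-0.37 ± 0.18, unadjusted p = 0.0739), and KO-1327 was as high as the CTRL libraries. Ppbp was furthest from 0 (-0.72 ± 0.45). Vwf averaged 85.1 ± 5.15 CPM in KO and 77.7 ± 34.4 CPM in CTRL, its CTRL libraries being the lowest and the highest of the 5. Selp averaged 36.6 ± 16.6 CPM in KO and 30.3 ± 15.8 CPM in CTRL (0.27 ± 0.40), with the Xist split described above. With Xist as a term, 0 of the 29 genes were called and the Selp value was 0.073. Gp6, not tested, was the one gene whose KO and CTRL libraries did not overlap, with all KO libraries lower, as were 7.26% of all genes tested. KO-1333 held the lowest value for 9 of 15 megakaryocyte genes and CTRL-1330 the highest for 8. Among the erythroid genes CTRL-1326 held the lowest for 8 of 16 and CTRL-1330 the highest for 7. The same counts were not made over all genes.

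**Figure D4:**
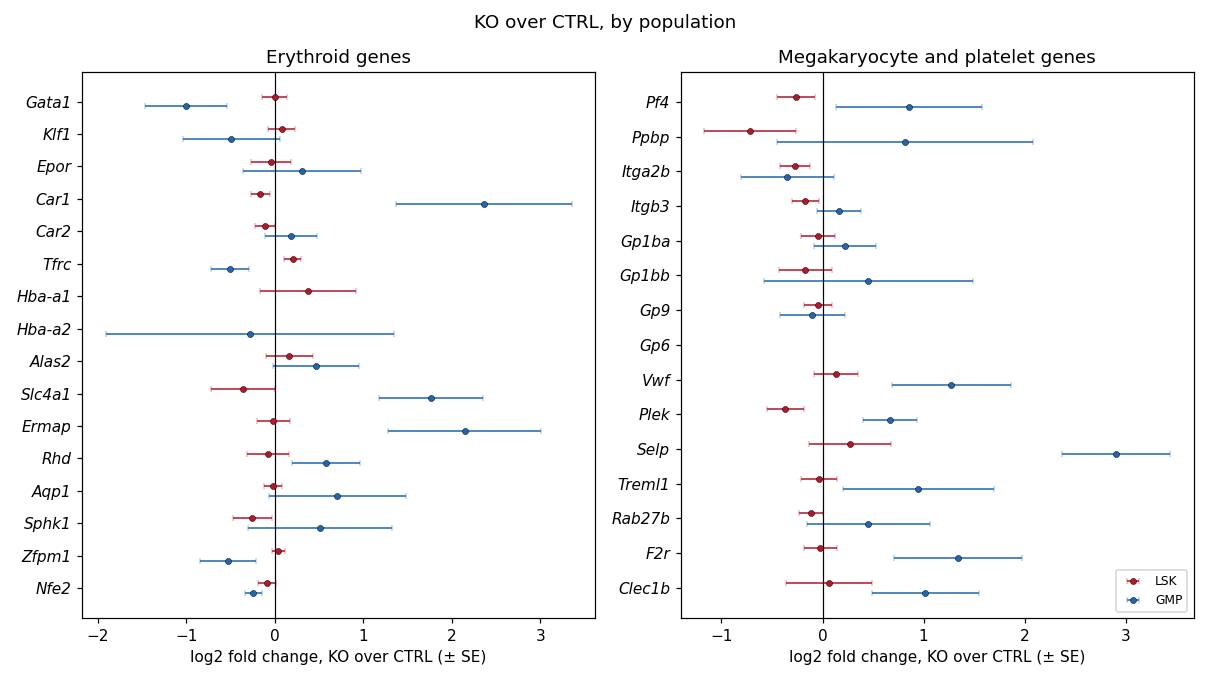
Fitted log2 fold change of KO over CTRL for each gene, in LSK (red) and GMP (blue), with bars of ± 1 SE from separate fits of each population. Most LSK values lie near 0, with Ppbp furthest from it at -0.72, while GMP values reach -1.003 for Gata1 and 2.90 for Selp. Bars are longer in GMP for most genes, and the longest LSK bar is that of Hba-a1 (SE 0.54). Genes not tested in a population have no point there.

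The difference between the KO effects, LSK minus GMP, was tested in a fit of all 10 libraries. It was called for 0 of 15 erythroid and 0 of 15 megakaryocyte genes, while 5 of 18836 genes were called in all (0.0265%). At an unadjusted p under 0.05 there were 4 erythroid genes, 2 megakaryocyte genes and 1894 of all genes, and DESeq2 called 0 of 29 members (1.3% of all genes) and limma-voom 0 of 30 (0.0106%). The median difference was -0.32 over the erythroid genes and -1.0 over the megakaryocyte genes, beside -0.021 over all genes. Of the megakaryocyte values 13 of 15 were negative, while 48% of all genes were positive. Gp6, among the negative ones, had at most 7 reads in any library. Without GMP CTRL-346 these medians were 0.058 and -0.49, and without GMP CTRL-350 -0.96 and -1.61. Selp had -2.65 ± 0.76 (adjusted p = 0.346), Slc4a1 -2.14 ± 0.70 (0.410), Ermap -2.17 ± 0.86 (0.463), Plek -1.05 ± 0.37 (0.435) and Car1 -2.53 ± 1.05 (0.469). Tfrc had 0.69 ± 0.25 (adjusted p = 0.436) and Gata1 0.9951 ± 0.54 (0.540). Without GMP KO-352, Ermap and Selp were called, among 513 genes in all (3.06%). With any 1 of GMP KO-178, GMP KO-179, GMP KO-352, LSK CTRL-1326 and LSK CTRL-1330 left out, the erythroid median ran between -0.57 and -0.12.

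Other genes of the 2 branches gave a like order of the populations with smaller medians. Of 45 further erythroid genes, such as glycophorins, spectrins and haem enzymes, 40 were tested between populations. Higher in LSK were 26 in KO and 27 in CTRL, and lower 3 in KO and 2 in CTRL, with medians of 1.30 in KO and 2.10 in CTRL. Of all genes, 30.7% were called higher and 30.1% lower in KO, and 28.2% and 27.3% in CTRL. The called genes of smallest p in CTRL included Tal1, a stem cell and erythroid transcription factor (1.69 ± 0.1039), and Tfr2, the second transferrin receptor (1.96 ± 0.12). Fech, which encodes a haem enzyme (-0.49 ± 0.16), was lower in LSK CTRL, as Tfrc was. Of 40 further megakaryocyte genes tested, 31 were higher and 5 lower in LSK KO (median 2.34), and 29 were higher and 5 lower in LSK CTRL (median 2.79). Meis1, a homeobox gene of stem cells and megakaryocytes (3.22 ± 0.14), and Pear1, a platelet receptor (5.16 ± 0.33), led in CTRL, while F13a1 (-3.18 ± 0.24), the factor XIII gene that monocytes express too, and Ptgs1 (-0.86 ± 0.16) were lower.

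Between KO and CTRL, 0 of the 38 further erythroid genes and 0 of the 38 further megakaryocyte genes tested in GMP were called, nor any of the 40 and 38 tested in LSK. In GMP the unadjusted count was 10 (8 positive) and 7 (2 positive), and in LSK 0 and 2. The smallest p in GMP was that of Pim1, a kinase gene downstream of cytokine receptors (1.61 ± 0.31, adjusted p = 0.254), among the erythroid genes and of Nbeal2, a gene of platelet granule formation (-0.61 ± 0.11, adjusted p = 0.240), among the megakaryocyte genes. In LSK these were Cd36 (-0.77 ± 0.42) and Cd226 (-1.13 ± 0.34), each with an adjusted p of 0.9998.

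Markers of other cells moved with the population as well. The 17 endothelial markers summed to 491 to 499.8 CPM in LSK KO, 466 to 518 CPM in LSK CTRL, 207 to 222.5 CPM in GMP KO and 213 to 231 CPM in GMP CTRL, with 12 of 14 tested called higher in LSK in each genotype. The 8 stromal markers summed to 59.7 to 91.8 CPM in LSK KO, 91.5 to 106 CPM in LSK CTRL, 19.1 to 44.4 CPM in GMP KO and 20.3 to 30.3 CPM in GMP CTRL. Of 7 stromal markers tested, 3 in KO and 4 in CTRL were called higher in LSK. The share of all genes called higher was 30.7% in KO and 28.2% in CTRL. Several endothelial markers are shared with stem cells, and the part of these cells in the LSK values was not tested.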

How the data were processed

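Per the labels' protocols, cells were sorted by FACS after red cell lysis and lineage depletion, and a stranded kit with ribosomal RNA removal was used on total RNA. The authors deposited raw counts per Ensembl gene. The submitters' processing notes name the builds mm10 and GRCm38 and the tools DESeq2 1.4.5, DESeq 1.18.0, HTSeq 0.5.3p3 and STAR, without their roles. For the annotation release, the sources used here give nothing. The authors also deposited a normalized signal, which is each raw count over a size factor of its library (to within 0.1% in at least 99.9179% of genes) and served to recover those factors. The GMP table ends in lines that name no gene (reads outside genes 8.50% to 16.1%, aligned to several places 26.3% to 29.0%, ambiguous 1.14% to 1.32% of reads listed), none of which entered the fits or the library sizes. No 2 libraries of a group agreed within sampling noise (lowest chi-square per degree of freedom 15.6). The raw tables hold 38924 gene IDs in GMP and 45513 in LSK, of which 37607 and 44585 had a symbol in GENCODE M21 (GRCm38, 1-based), which also gave coordinates and exon lengths.

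Counts were tested with edgeR 4.0.16 in R 4.3.3: filterByExpr (minimum count 10), TMM, the quasi-likelihood test, two-sided, with Benjamini-Hochberg adjustment over all genes tested and a threshold of 0.05. KO was compared with CTRL in a fit of each population (3 residual degrees of freedom), and LSK with GMP and the difference of KO effects in a fit of 10 libraries with 1 mean per group (6 residual degrees of freedom). SE is |log2 fold change| over the root of the F statistic. CPM uses the TMM sizes of the fit of 10 libraries. CPM of unscaled totals would be 0.817 to 0.904 times these values in GMP and 1.09 to 1.18 times in LSK. A group at 0 was set against a floor of 3 reads over the group, and ratios of 1 to 3 reads have a 95% exact interval; both cover counting error only, as PCR copies cannot be told from separate molecules. The edgeR step was tested on simulated counts with known changes. Alternatives were DESeq2 1.42.0, limma-voom (limma 3.58.1), other scalings, no filter, a joint fit, a term for the share outside genes, GMP counts thinned to LSK depth, tests without mitochondrially encoded genes, leaving out each library, and 3 chosen after seeing the data (Xist above 10 CPM as a term in LSK, and GMP without CTRL-346 and KO-352 or without KO-178 and KO-179). All members are accounted for. From other lists the text names the 2 called genes of smallest p per direction in CTRL, or the 1 of smallest p where none was called; 1 gene that this rule names is not reported here. Members and lists were chosen with earlier results of these data known.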

Additional observations from a re-analysis of the deposited data

How the results depend on the processing

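Between LSK and GMP, 13 to 15 erythroid genes and 11 to 14 megakaryocyte genes were called in CTRL over the alternatives, and 13 to 15 and 11 to 13 in KO; no fold change past the threshold changed sign. Calls moved for Gata1, Alas2, Itga2b, Itgb3 and Gp6 in CTRL and for Alas2, Slc4a1, Itga2b and Itgb3 in KO. The Gata1 call in CTRL was lost without LSK CTRL-1330 (adjusted p = 0.0695) and the Gp6 call in DESeq2 (0.0527). Gp6 was called in 4 of 10 alternatives in CTRL and not tested in 5, those without single libraries and with GMP counts thinned. KO against CTRL in LSK gave 0 called members under every alternative run. In GMP the erythroid count of 0 became 2 with a term for the share outside genes and 3 without CTRL-346 and KO-352. The megakaryocyte count of 0 became 1 with no filter on low counts, 1 in DESeq2, 0 to 1 leaving out single libraries (1 without KO-352) and 3 without CTRL-346 and KO-352. For the difference of KO effects, single libraries left out gave 0 to 1 erythroid and 0 to 1 megakaryocyte genes. The cause of these moves was not tested. Of the calls over all genes, 6 in GMP became 50 with no filter, 718 in DESeq2, 0 in limma-voom, 182 in the fit of 10 libraries, 205 with the share term, 1050 without CTRL-346 and KO-352, 3 without KO-178 and KO-179, and 1 to 172 leaving out single libraries. The 4 in LSK became 27 with no filter, 21 in DESeq2, 0 in the fit of 10 libraries and 3 to 11 leaving out single libraries. The 5 of the difference became 38 with no filter, 218 in DESeq2, 2 in limma-voom and 1 to 513 leaving out single libraries. Where 1 CTRL library was left, that sample was assumed to vary like the others. No paired analysis was possible because no 2 groups have a title number in common. Depth limits the globins, Gp6 and Ppbp, which had few reads.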
